A study of Mus musculus with 23 samples.

Results

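Fibroblasts whose p53 had both transactivation domains disrupted (QM, 3 arrays) were compared with fibroblasts that had wild-type p53 (WT, 6 arrays), 9 of the 23 arrays of the series. The arrays were taken by title: LSL-QM+Cre for QM, and LSL-WT+Cre (3 arrays) together with WT+Cre (3 arrays) for WT. These 9 were of mouse embryonic fibroblasts, primary cells grown from embryos, that carried a retroviral H-Ras V12 oncogene and had been infected with an adenovirus for Cre recombinase. The QM allele is p53 L25Q/W26S/W53Q/F54S, a knock-in behind a stop cassette (LSL) that Cre removes. LSL-WT+Cre is the same kind of knock-in with wild-type p53, and WT+Cre holds wild-type p53 without the cassette. For array 3 of WT+Cre the genotype label, unlike the title, names the LSL allele. QM array 1 came from the mixed 129/Sv/C57BL6 background and the other 2 from 129/Sv, against 3 WT arrays of each background. For comparison, 3 further classes with the same oncogene were used: 25,26 and 53,54, knock-ins behind the same cassette that received Cre, and Null. Null joined 3 arrays titled Null+Cre with 3 titled LSL-WT+Emp, in which the wild-type knock-in received an empty adenovirus and the cassette stayed in place. Of these classes 1 of 5 arrays of 25,26, 2 of 3 of 53,54 and 2 of 6 of Null came from the mixed background. The labels give neither the embryos' age nor the copy number of the alleles, and do not say whether arrays of 1 group came from separate cultures, so p-values measure only the spread between these samples. The transcript of the targeted gene is not analysed here, and the deposited values hold no other check of the alleles.

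p53 is a transcription factor that binds DNA near its target genes and raises their transcription through its transactivation domains. In fibroblasts that receive oncogenic Ras it is known for stopping division and bringing on senescence, with the cyclin-dependent kinase inhibitor Cdkn1a as a central target. Cdkn1a holds back the kinases that free E2F factors from the retinoblastoma family, and in arrested cells the DREAM complex, which contains retinoblastoma relatives and Lin proteins, keeps genes of replication and mitosis low.

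Levels are log2 RMA intensities, in which 1 unit is a doubling, and differences are QM minus WT on that log2 scale with the standard error of the fit. Of 15266 genes tested, 2325 were higher and 1700 lower in QM at an adjusted p under 0.05, which is 15.2% and 11.1% of them. A change of at least 1 log2 unit was seen in 338 of the higher genes and 254 of the lower ones. The 3 QM arrays lay above all 6 WT arrays in 1264 of the higher genes, and below them in 869 of the lower genes. Over all 15266 genes tested, called or not, these counts were 1338 and 1000. The median difference over all genes was 0.00. The fit holds the number in the array title as a block. Without that block 1246 genes were higher and 879 lower, or 8.16% and 5.76%, and without QM array 2 the fit with the block called 2611 genes in place of 4025. Xist, from the inactive X chromosome, was above a log2 level of 8 in 2 of 3 QM arrays and 4 of 6 WT arrays. The WT subgroups were unlike, at 6.4, 12.71 and 6.42 in LSL-WT+Cre and 11.6, 11.47 and 11.86 in WT+Cre. It was above 8 in 1 of 6 Null arrays, 4 of 5 of 25,26 and 1 of 3 of 53,54. The median intensity of all arrays of the series lay between 59.9 and 64.22. Each measurement is of bulk RNA, in which fewer cells of a type and less RNA per cell cannot be told apart.

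**Figure D1:**
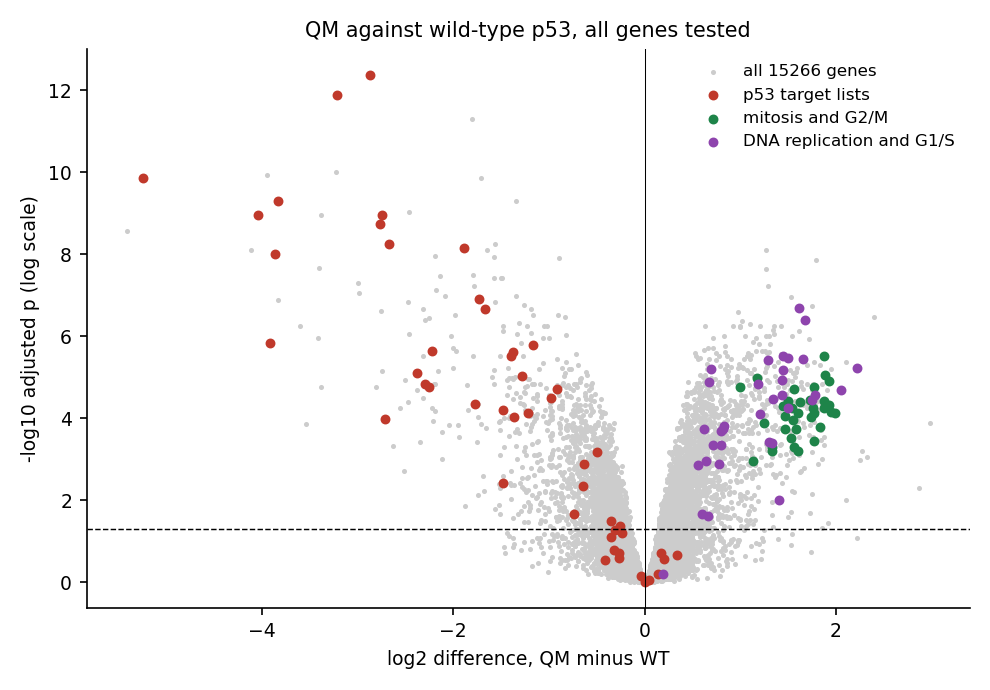
Each point is 1 of 15266 genes, with the log2 difference QM minus WT on the horizontal axis and -log10 of the adjusted p on the vertical axis; the dashed line marks an adjusted p of 0.05. Members of the 3 p53 target lists are red, mitosis genes green and replication genes purple. The mitosis genes all lie right of 0 above the line, while 35 of 49 p53 target genes lie left of 0 above it.

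The genes by which p53 halts the cycle and limits itself were much lower in QM. Of 20 tested members of the list of arrest and feedback targets, 15 were lower and none higher, with a median difference of -1.44. Cdkn1a had log2 levels of 10.64, 11.18 and 10.64 in the QM arrays, against 13.33 to 14.09 with a median of 13.43 in the WT arrays. Its difference was -2.77 ± 0.15 (SE, adjusted p = 1.8e-09), a level 6.80 times as high in WT as in QM, and no QM array came near a WT array. Ccng1, a cyclin that recruits a phosphatase to Mdm2, had the lowest p of the named genes. It stood at 11.05, 11.15 and 11.36 in QM, against 13.88 to 14.20 (median 14.07) in WT, with a difference of -2.88 ± 0.08 (adjusted p = 4.2e-13). Psrc1, a microtubule-binding protein, showed the largest change of the list. Its QM levels were 6.04, 6.12 and 6.79, against 11.35 to 12.05 (median 11.49) in WT, with a difference of -5.25 ± 0.24 (adjusted p = 1.4e-10), or -3.11 for the mean of its probe sets.

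A Cdkn1a promoter is shown because Cdkn1a was the 1 gene of this list with the spaced p53 core searched for. That motif is CATG, any 6 bases and CATG again, the core letters of adjoining p53 binding units, and it reads the same on both strands. It was present in 1 of the 17 arrest and feedback genes with a RefSeq promoter, and in 50 of 12202 tested genes with one (0.410%), in windows from 250 bases before to 50 after the start site. A gene counted if any of its RefSeq start sites had a match, and only a start with one is shown. The window below covers bases -120 to -1 before this Cdkn1a start (RefSeq, GRCm38.p6, chr17:29090859-29090978, plus strand), with the motif in capitals. Whether it is the main start of the gene was not examined.
Cdkn1a: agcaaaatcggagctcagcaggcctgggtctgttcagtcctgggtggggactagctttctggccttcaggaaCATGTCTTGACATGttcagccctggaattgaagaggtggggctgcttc
A match is a description of the letters and shows no binding in these cells.

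Of the negative regulators of p53 in the list, Mdm2, Ppm1d and Rchy1 fell, and Mdm4 was not called. Mdm2, the ubiquitin ligase that degrades p53, stood at 10.28, 10.38 and 10.17 in QM, against 12.60 to 13.65 (median 13.04) in WT, a difference of -2.75 ± 0.15 (adjusted p = 1.1e-09). Ppm1d, the phosphatase that reverses p53 phosphorylation, had a difference of -0.98 ± 0.13 (adjusted p = 3.3e-05) and Rchy1, another ubiquitin ligase for p53, one of -0.63 ± 0.13 (adjusted p = 0.0013). Rchy1 was the 1 called gene of the list whose groups overlapped, with QM array 1 at 10.82 and the lowest WT array at 10.79. Among the other arrest genes, Trp53inp1, a nuclear partner of p53, fell by 4.04 on the log2 scale, and the antiproliferative gene Btg2 by 2.38. Rprm (Reprimo), which arrests cells before mitosis, fell by 2.22, and Zmat3, an RNA-binding protein, by 1.89. Smaller falls were measured for Plk2 (-1.48), Pml (-1.39), Sesn2 (-1.17) and Tob1 (-0.50). A second tested probe set of Plk2 showed 0.09 and was not called, and the mean of its probe sets differed by -0.69. Ptprv, a receptor phosphatase, fell by 2.72.

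The other 5 members were not called. Gadd45a, a stress-response gene and a textbook p53 target, stood at 9.54, 9.62 and 9.90 in QM, against 9.41 to 9.81 (median 9.71) in WT, a difference of 0.01 ± 0.13 (adjusted p = 0.97). The groups overlapped throughout. Sesn1 had a difference of 0.17 ± 0.09, Sfn of 0.05 ± 0.19, Mdm4 of -0.27 ± 0.16 and Plk3 of -0.35 ± 0.14 (adjusted p = 0.19, 0.89, 0.26 and 0.079). Mdm4, the partner of Mdm2, differed between the WT subgroups: QM was lower than LSL-WT+Cre by 0.62 on the log2 scale, while the difference from WT+Cre was 0.08.

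**Figure D2:**
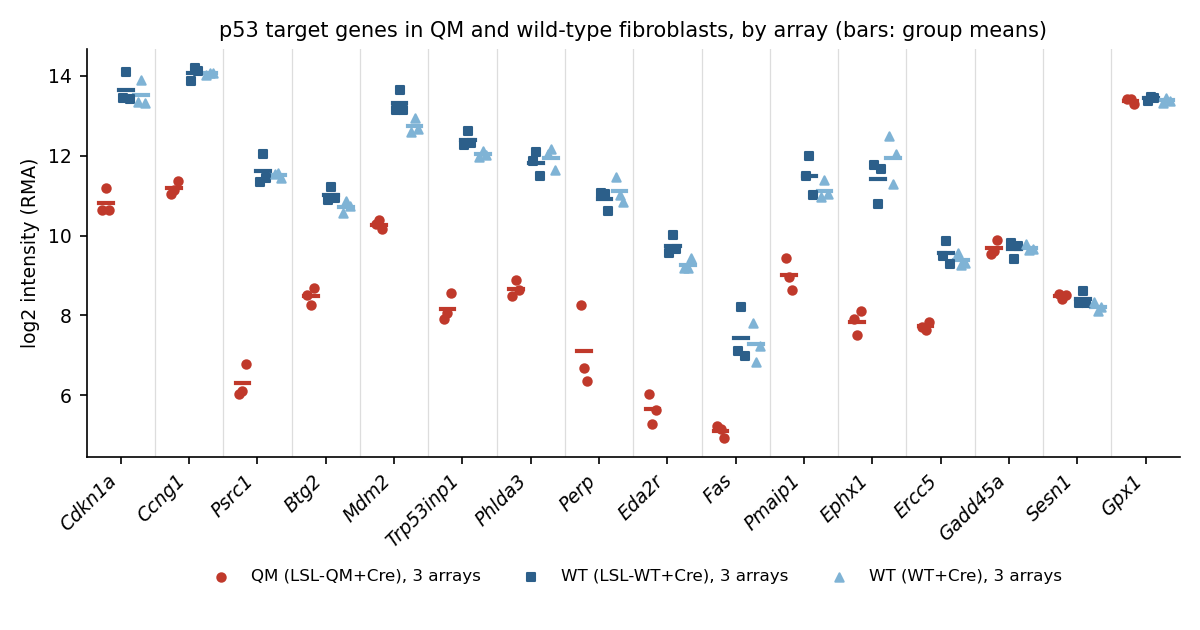
Log2 intensity of 16 p53 target genes in each array: red circles are the 3 QM arrays, dark squares the 3 LSL-WT+Cre arrays and light triangles the 3 WT+Cre arrays, and bars are the means of each. For the 13 genes on the left every QM array lies below every WT array, and for Gadd45a, Sesn1 and Gpx1 the groups overlap.

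Cell-death targets were lower in QM in 13 of 16 tested members, with none higher and a median difference of -1.42. The list holds receptors of the tumour necrosis factor family. Eda2r, one of them, stood at 6.03, 5.29 and 5.63 in QM, against 9.18 to 10.01 (median 9.50) in WT, a difference of -3.86 ± 0.25 (adjusted p = 1e-08). Fas, the death receptor, stood at 5.24, 5.15 and 4.93 in QM, against 6.83 to 8.20 (median 7.17) in WT, a difference of -2.25 ± 0.28 (adjusted p = 1.7e-05). For both receptors every QM array lay below every WT array. Tnfrsf10b, the receptor for the ligand TRAIL, had a difference of -0.74 ± 0.22 (adjusted p = 0.021). It did not pass the threshold without QM array 1 or without QM array 2, with a difference between -0.87 and -0.57 over all alternatives.

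Among the mitochondrial inducers, Pmaip1 (Noxa), a BH3-only protein, had levels of 9.44, 8.96 and 8.64 in QM, against 10.96 to 11.99 (median 11.21) in WT, a difference of -2.30 ± 0.28 (adjusted p = 1.4e-05). Bbc3 (Puma), of the same family, differed by -0.64 ± 0.15 (adjusted p = 0.0046), and its groups overlapped because 1 WT array lay at 8.18 and 1 QM array at 8.40. Perp, a membrane protein of desmosomes, varied among the QM arrays more than the other targets. It stood at 8.25, 6.68 and 6.37 in QM, against 10.61 to 11.47 (median 11.04) in WT, a difference of -3.91 ± 0.38 (adjusted p = 1.5e-06). QM array 1, the array of the mixed background, was the highest of the 3 for Perp.

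Phlda3, which keeps the kinase Akt from membranes, stood at 8.50, 8.89 and 8.63 in QM, against 11.49 to 12.17 (median 11.96) in WT, a difference of -3.21 ± 0.10 (adjusted p = 1.3e-12). Ei24, a protein of the endoplasmic reticulum, fell by 2.67, the kinase Dapk1 by 1.77, and Cyfip2, an actin regulator, by 1.48. Pidd1, the platform that activates caspase-2, fell by 1.36, the nuclease Aen by 1.28 and Siva1 by 0.91. The members not called were Apaf1, the core of the apoptosome (-0.26 ± 0.14, adjusted p = 0.19), Bid (-0.32 ± 0.16, 0.16) and Steap3 (-0.42 ± 0.26, 0.28). Apaf1 was below LSL-WT+Cre by 0.54 on the log2 scale, and its difference from WT+Cre was 0.01.

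Targets in DNA repair and metabolism were divided. Of 13 tested members 7 were lower and none higher, with a median difference of -0.31, and 5 were lower without the block. Ephx1, an epoxide hydrolase that detoxifies reactive compounds, had levels of 7.91, 7.50 and 8.10 in QM, against 10.80 to 12.48 (median 11.72) in WT, a difference of -3.83 ± 0.19 (adjusted p = 5.2e-10). The repair enzymes followed. Ercc5, an endonuclease of nucleotide excision repair, fell by 1.74 (by 0.96 for the mean of its probe sets), Mgmt, which removes alkyl groups from guanine, by 1.67, and the lesion-bypass polymerase Polk by 1.37. Aldh4a1, of proline breakdown, fell by 1.22. Rrm2b (-0.35, adjusted p = 0.033) and Sat1 (-0.26, adjusted p = 0.042) were close to the threshold, and neither passed it without QM array 1, 2 or 3. WT+Cre array 2 also decided both calls, WT+Cre array 3 that of Rrm2b, and WT+Cre array 1 and LSL-WT+Cre array 2 that of Sat1. Xpc (-0.31, adjusted p = 0.052), Tigar (-0.24, 0.063), Ddb2 (0.34, 0.21), Polh (0.20, 0.28), Sod2 (0.14, 0.61) and Gpx1 (-0.03, 0.72) were not called.

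A further 8 genes had been published as targets that the 25,26 mutant, with only the first transactivation domain disrupted, still activates, and all 8 were lower in QM, with a median difference of -1.34. The study chose that list in part on these samples, so its direction is not independent evidence. Sulf2, which trims sulfate groups from heparan sulfate outside the cell, stood at 9.54, 9.05 and 10.02 in QM, against 12.53 to 13.15 (median 12.96) in WT, a difference of -3.38 ± 0.18 (adjusted p = 1.1e-09). Of its 3 probe sets 2 were lower and the other showed a difference of 0.16. Crip2, a LIM-domain protein, fell by 2.31, Arap2, a GTPase-activating protein, by 2.19, and Def6 by 1.36. Abhd4 (-1.33), Ndrg4 (-1.26), Sidt2 (-1.10) and Kank3 (-1.02) completed the list, and the mean of the probe sets of Kank3 differed by -0.61.

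Beside p53-null fibroblasts (6 arrays with no active p53, titled LSL-WT+Emp or Null+Cre), QM differed in 2 of the 15266 genes, or 0.0131%, with 736 at an unadjusted p under 0.05. Both were higher in QM and both belong to the list just described. Sulf2 averaged 9.54 in QM and 7.89 in Null, a difference of 1.64 (adjusted p = 0.00093), and Def6 averaged 7.91 in QM and 6.47 in Null, a difference of 1.39 (adjusted p = 0.00093). Both calls held with any 1 QM or Null array left out. The p53 target lists had median differences between QM and Null of 0.11, 0.10 and 0.11 for arrest, death and repair genes. That of the 25,26 list was 0.29, with list means of 8.87 to 9.15 in QM and 8.29 to 8.55 in Null. Few calls between 3 and 6 arrays do not show that QM and Null were alike. Set against 25,26 (5 arrays), QM was lower in 347 genes (2.27%) and higher in 256 (1.68%). Among these were 7 of 20 arrest targets, 8 of 16 death targets, 5 of 13 repair targets and all 8 genes of the 25,26 list, each lower in QM. Called higher in QM than in 25,26 were 1 of 34 mitosis, 11 of 34 replication and 6 of 14 recombination genes. The median differences of these 3 lists were 0.64, 0.64 and 0.61. Set against 53,54 (3 arrays), with only the second domain disrupted, QM was lower in 1551 genes (10.2%) and higher in 2029 (13.3%). The lower genes held 15 of 20 arrest and 12 of 16 death targets, and the higher ones all 34 mitosis and 33 of 34 replication genes. These comparisons share the QM arrays with the comparison against WT.

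The 15 largest falls, taken among called genes whose QM and WT arrays did not overlap, had differences between -5.41 and -3.38. Psrc1, Trp53inp1, Perp, Eda2r, Ephx1 and Sulf2, described above, were among them. The largest was that of 1700007K13Rik, which stood at 4.66, 4.67 and 4.81 in QM, against 9.25 to 10.96 (median 10.09) in WT, a difference of -5.41 ± 0.31 (adjusted p = 2.7e-09). Ano3, of the anoctamin membrane proteins, stood at 4.18, 4.32 and 3.90 in QM, against 7.53 to 9.17 (median 8.24) in WT, a difference of -4.12 ± 0.26 (adjusted p = 7.8e-09). The QM levels of these 2 genes lay around or under 4.79, the 30th percentile of all values, where an array resolves little. Those of Celf5 (4.85 to 5.18) and Ivl (4.89 to 5.36), also among the 15, lay not far above it. The same holds for Fas (4.93 to 5.24) and Icam1 (4.85 to 5.81), outside the 15, so the sizes of these falls are uncertain. Dcxr, a reductase of sugars and dicarbonyls, fell by 3.83, Ddit4l, an inhibitor of mTOR signalling, by 3.40, and Celf5, an RNA-binding protein, by 3.42. Btn1a1 fell by 3.60 (by 1.88 for the mean of its probe sets) and 9230114K14Rik by 3.94.

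Crct1 and Ivl (involucrin), genes of the cornified layer of skin, were also among the 15, with differences of -3.54 ± 0.55 and -3.38 ± 0.42. Crct1 varied widely in WT, from 8.10 to 12.06, against 6.64, 6.53 and 6.40 in QM, and the 2 WT subgroups differed from each other by -2.14 (LSL-WT+Cre minus WT+Cre). Of 10 tested epithelial markers 1 was lower and none higher, with a median difference of -0.24. That count is near the share over all genes tested, 11.1% lower. The lower one was Dsp (desmoplakin), a desmosome protein. It stood at 5.18, 6.09 and 6.17 in QM, against 6.55 to 9.47 (median 8.94) in WT, a difference of -2.51 ± 0.53 (adjusted p = 0.0019). The call was lost without the arrays numbered 2. The summed intensity of the epithelial markers was 3660 to 4980 in QM and 4630 to 7710 in WT, and Epcam, which defines simple epithelia, lay at 7.20 to 7.33 in QM and 7.29 to 7.56 in WT. The part of such cells in these falls was not tested.

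Genes of mitosis were higher in QM throughout. All 34 tested members passed the threshold in that direction, with differences from 1.001 (Ncaph) to 1.995 (Ncapg) and a median of 1.60. QM and WT arrays overlapped in none of them, while 1338 of all 15266 genes tested had every QM array above every WT array. The spindle-checkpoint kinases Bub1, Ttk and Bub1b were among the 15 largest rises, taken by the same rule as the falls. Bub1 stood at 11.07, 11.13 and 11.52 in QM, against 8.29 to 9.84 (median 9.67) in WT, a difference of 1.95 ± 0.28 (adjusted p = 7.2e-05). Ttk differed by 1.93 ± 0.27 and Bub1b by 1.93 ± 0.23, although 1 of 3 probe sets of Bub1b showed -0.04. Cenpa, the histone of centromeres, stood at 11.63, 11.26 and 11.41 in QM, against 8.72 to 10.12 (median 9.81) in WT, a difference of 1.87 ± 0.20 (adjusted p = 3.1e-06). Nek2, a kinase that separates centrosomes, rose by 1.88, and Pbk, a mitotic kinase outside the list, by 1.93. A second tested probe set of Cenpa showed 0.20 and was not called. Averaged over all probe sets of each gene the differences were smaller and all still called, at 1.13 for Bub1, 1.09 for Ttk, 0.74 for Cenpa and 0.94 for Nek2.

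The promoters of mitosis genes often held the CHR element, to which the DREAM complex binds. The letters TTTGAA, on either strand, were present in 21 of 28 mitosis genes with a RefSeq promoter (75%), against 4 of 28 replication genes (14.3%) and 14.7% of the 12202 tested genes with one. CCAAT, on either strand, was present in 82.1% of the mitosis promoters, 60.7% of the replication promoters and 42.3% of all. The promoters of Cdc20, the activator of the anaphase-promoting complex, and Ncapg, a condensin subunit, show the element near a RefSeq start site. Genes were counted and start sites chosen as for Cdkn1a. Both windows cover bases -120 to -1 (RefSeq, GRCm38.p6), with CHR and CCAAT letters in capitals. Cdc20 lies at chr4:118437344-118437463 on the minus strand with CHR from base -18, and Ncapg at chr5:45669805-45669924 on the plus strand with CHR from base -30.
Cdc20: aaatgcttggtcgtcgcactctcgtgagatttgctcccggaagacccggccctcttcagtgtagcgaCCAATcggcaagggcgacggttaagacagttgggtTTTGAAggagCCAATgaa
Ncapg: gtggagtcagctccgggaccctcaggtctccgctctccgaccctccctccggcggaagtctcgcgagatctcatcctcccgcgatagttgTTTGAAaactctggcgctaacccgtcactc
Cdc20 stood at 12.55, 12.32 and 12.84 in QM, against 10.61 to 11.84 (median 11.60) in WT, a difference of 1.18 ± 0.14 (adjusted p = 1.1e-05). Ncapg stood at 9.42, 9.45 and 9.84 in QM, against 6.26 to 8.14 (median 7.98) in WT, a difference of 1.995 ± 0.29 (adjusted p = 7.2e-05).

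The WT arrays were not alike in these genes. The mean log2 level of the mitosis list was 10.63, 10.48 and 10.78 in QM arrays 1, 2 and 3. It was 9.41, 7.90 and 9.35 in LSL-WT+Cre, and 9.51, 8.41 and 9.49 in WT+Cre. Array 2 was thus the lowest in both WT subgroups, and LSL-WT+Cre array 2 was also the highest for the arrest and feedback list, at 10.75 against 10.22 to 10.37 in the other WT arrays. Within title numbers 1, 2 and 3, QM exceeded the mean of its WT arrays by 1.17, 2.33 and 1.36 for the mitosis list. Without the arrays of number 2 all 34 genes were still called higher, with a median difference of 1.25.

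**Figure D3:**
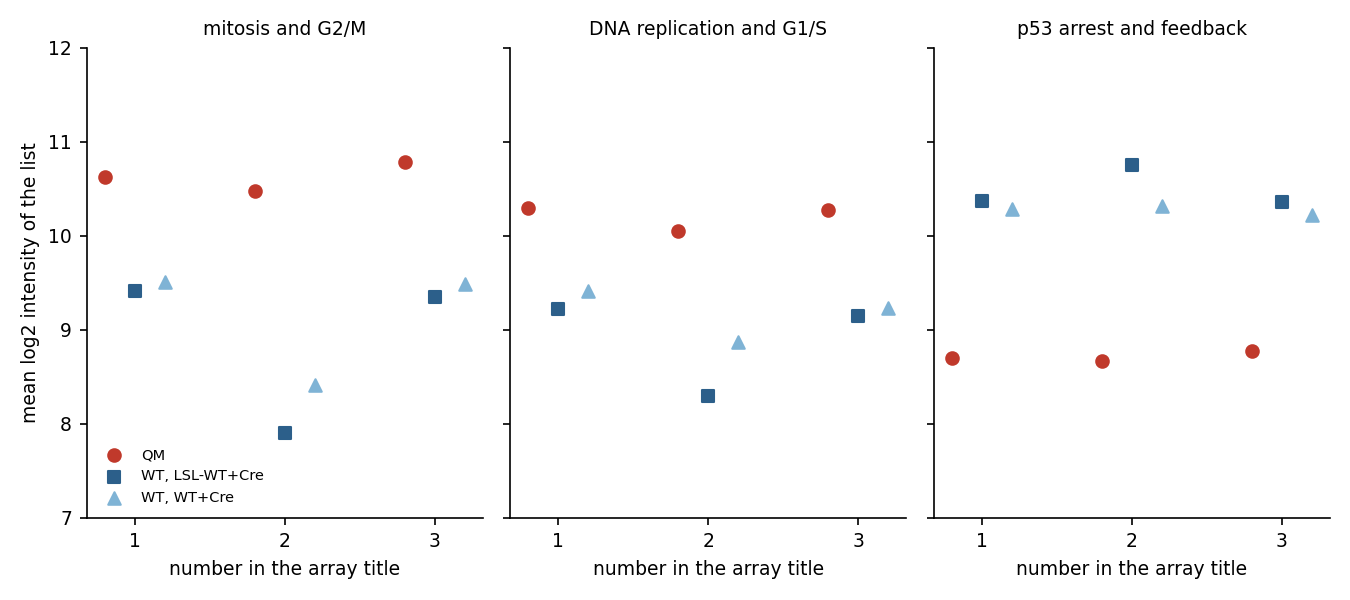
Mean log2 intensity of 3 gene lists in each array, by the number in the array title: red circles are QM, dark squares LSL-WT+Cre and light triangles WT+Cre. QM lies above both WT arrays of its number for mitosis and replication and below both for p53 arrest and feedback, and the WT arrays numbered 2 are the lowest for mitosis and replication.

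DNA replication genes rose with the mitosis genes, in 33 of 34 tested members, with a median difference of 1.30. The licensing factor Cdc6 stood at 9.66, 9.28 and 9.79 in QM, against 6.09 to 7.89 (median 7.72) in WT, a difference of 2.23 ± 0.25 (adjusted p = 5.9e-06). The nuclease Exo1 (2.05 ± 0.26) and the clamp loader subunit Dscc1 (2.11 ± 0.23), which is not in the list, were likewise among the 15 largest rises. Mcm10, an initiation factor, had levels of 9.08, 8.75 and 9.18 in QM, against 6.70 to 7.78 (median 7.58) in WT, a difference of 1.62 ± 0.13 (adjusted p = 2.1e-07). Gins1, of the replicative helicase, rose by 1.68, and the clamp loaders Rfc4 and Rfc5 by 1.45 and 1.50. With probe sets averaged by gene the differences were 1.19 for Dscc1, 0.82 for Mcm10 and 0.94 for Gins1, all still called. Ccne1 (cyclin E1) was the 1 member not called, with a difference of 0.20 (adjusted p = 0.62). Without the arrays numbered 2, 29 members were called higher.

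All 14 tested genes of recombination and the Fanconi pathway, which repairs crosslinked DNA, were higher in QM, with a median difference of 1.27. Fancd2 stood at 7.96, 7.71 and 8.06 in QM, against 5.98 to 6.94 (median 6.86) in WT, a difference of 1.28 ± 0.14 (adjusted p = 5.3e-06). Its partner Fanci rose by 0.997, Fancb, a subunit of the ligase that modifies them, by 1.70, and the recombination motor Rad54l by 1.60. Of the tested probe sets, 1 of 3 of Fancd2 showed 0.19 and 1 of 2 of Rad54l showed 0.10, and neither was called. After averaging probe sets by gene the differences were 0.54 for Fancd2, 0.67 for Rad54l and 1.09 for Fancb, all still called.

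The regulators above these genes moved in both directions. The shares over all genes tested were 15.2% higher and 11.1% lower. Of 12 tested genes of the Rb, E2F and DREAM list 7 were higher and 1 was lower, with a median difference of 0.62. The lower one was Rb1, the retinoblastoma protein itself. It stood at 7.49, 7.62 and 8.11 in QM, against 9.64 to 10.72 (median 9.93) in WT, a difference of -2.25 ± 0.19 (adjusted p = 3.7e-07), and the QM and WT arrays were far apart. Its relative Rbl1 (p107) rose, at 8.67, 8.61 and 8.85 in QM, against 7.28 to 8.13 (median 8) in WT, a difference of 0.89 ± 0.12 (adjusted p = 3.6e-05). Lin9, a DREAM core subunit, rose by 1.52, and Foxm1, the activator of mitotic genes, by 1.26. Averaging probe sets by gene gave differences of -1.27 for Rb1, 0.58 for Rbl1 and 0.67 for Foxm1, all still called. E2f2, E2f3, E2f8 and Rbl2 (p130) were not called, with differences of 0.14, 0.22, -0.11 and -0.08.

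The cyclin-dependent kinase inhibitors other than Cdkn1a did not fall as a group. Cdkn1b (p27) was higher, at 8.62, 9.24 and 8.97 in QM, against 7.30 to 8.45 (median 8.06) in WT, a difference of 0.93 ± 0.17 (adjusted p = 0.00066). Cdkn2d (p19) was higher, with a difference of 0.80 ± 0.12 (adjusted p = 7.8e-05). The arrays of both genes did not overlap between groups, and the mean of the probe sets of Cdkn1b differed by 0.45, still called. Cdkn2a, which encodes p16 and p19Arf, stood at 11, 12.38 and 12.53 in QM, against 10.25 to 11.73 (median 10.75) in WT, a difference of 1.04 ± 0.27 (adjusted p = 0.0078). Its groups overlapped, QM array 1 was the lowest of the 3, and the call was lost without QM array 2 or 3. Cdkn2b (p15) had a difference of -0.35 ± 0.10 (adjusted p = 0.017), which was not called without the block, nor without QM array 1 or 2. Cdkn1c (0.36 ± 0.23, adjusted p = 0.28) and Cdkn2c (0.30 ± 0.26, 0.46) were not called.

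Chromatin and lamina genes that decline in senescent cells were higher in QM. In the list of senescence chromatin and lamina genes 6 of 9 were higher and 1 lower, with a median difference of 0.80. The shares over all genes tested were 15.2% higher and 11.1% lower. Lmnb1 (lamin B1), whose loss marks senescence, stood at 10.24, 9.54 and 9.93 in QM, against 8.25 to 9.48 (median 9.12) in WT, a difference of 0.90 ± 0.11 (adjusted p = 1.3e-05). The lowest QM array, number 2, lay just above the highest WT array, WT+Cre 1 at 9.48. Lbr, the lamin B receptor, rose by 1.31, the Polycomb methyltransferase Ezh2 by 0.80 and the histone H2ax by 0.75. The lower member was Glb1 (-0.51, adjusted p = 0.020), the lysosomal galactosidase whose activity is stained in senescent cells, and the list had no lower call without QM array 1 or QM array 3.

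Of the 15 largest rises 9 were in none of the cell-cycle lists, among them Dscc1 and Pbk, given above, and 7 others. Cxcl10, a chemokine induced by interferon, rose most of the 15, which were taken among called genes without overlap between QM and WT arrays. It stood at 9.90, 9.71 and 9.80 in QM, against 6.16 to 8.52 (median 6.36) in WT, a difference of 2.98 ± 0.46 (adjusted p = 0.00013), or 7.89-fold. The 2 highest WT arrays were LSL-WT+Cre 3 (8.52) and LSL-WT+Cre 1 (7.31). Tmem26, a membrane protein, stood at 8.49, 8.50 and 9.13 in QM, against 5.63 to 6.83 (median 6.31) in WT, a difference of 2.40 ± 0.20 (adjusted p = 3.4e-07). Hunk, a kinase related to AMPK, rose by 1.95, Slc7a3, a transporter of cationic amino acids, by 1.95, and the adenylyl cyclase Adcy8 by 2.28. Cytip, an adaptor of integrin signalling, varied widely in WT, at 11.05, 10.16 and 10.69 in QM, against 5.31 to 9.98 (median 7.34) in WT. Its difference of 2.87 ± 0.70 (adjusted p = 0.0051) was no longer called without the arrays numbered 2.

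**Figure D4:**
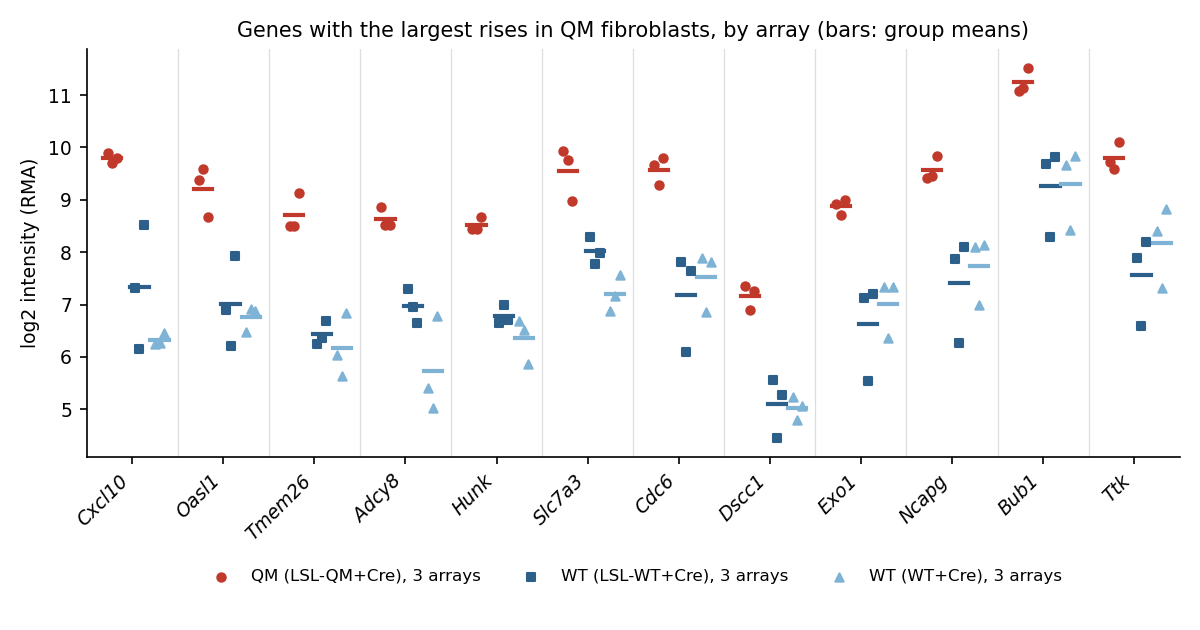
Log2 intensity of 12 of the 15 genes with the largest rises in each array: red circles are the 3 QM arrays, dark squares LSL-WT+Cre, light triangles WT+Cre, and bars are means. The genes were chosen among those whose QM and WT arrays did not overlap, so the separation in each gene follows from the choice. The WT arrays of Cxcl10 run from 6.16 to 8.52. Cytip, Pbk and Bub1b are not drawn.

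Oasl1, an antiviral protein, was the second interferon-response gene among them, at 9.37, 9.59 and 8.67 in QM, against 6.20 to 7.93 (median 6.88) in WT, a difference of 2.33 ± 0.45 (adjusted p = 0.00088). The interferon list as a whole was less uniform, with 5 of 22 members higher, 1 lower and a median difference of 0.44. Over all genes tested, 15.2% were higher and 11.1% lower. Without the block 3 members of the interferon list were higher. Without the arrays numbered 2 its counts were 2 higher and 1 lower with a median of 0.18, and the higher members were 2 without QM array 1 or QM array 2. The median of the list was 0.09 without QM array 1 and 0.84 without QM array 3. Ifi35 was the lower member (-0.74, adjusted p = 0.018), a call lost without QM array 2 or 3.

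Secreted factors of senescence changed little as a list. Of 34 tested genes 1 was higher and 5 were lower, with a median difference of -0.14, and the counts without the block were 0 and 2. Over all genes tested, 15.2% were higher and 11.1% lower, and the lower count of the list is near that share. Csf1, the macrophage growth factor, stood at 10.28, 10.63 and 10.53 in QM, against 11.06 to 11.94 (median 11.37) in WT, a difference of -0.96 ± 0.22 (adjusted p = 0.0036). Timp2, an inhibitor of matrix proteases, fell by 0.49. Il6, the cytokine most used to follow the secretion, had a difference of 0.50 (adjusted p = 0.72). Without QM array 2 the list had 2 lower members. Of 13 NF-kB targets 3 were higher and 1 lower, with a median of 0.10, and 1 was higher without the block or without QM array 1. The higher ones were Ccl5 (2.11 ± 0.56, adjusted p = 0.0095), Bcl3 (0.78 ± 0.21, 0.0094) and Tnfaip2 (0.41 ± 0.11, 0.0083). For Ccl5 the groups overlapped, and the call was lost without QM array 1 or 2. The lower one was Icam1, the adhesion receptor for leukocytes, at 5.81, 4.85 and 5.49 in QM, against 6.68 to 8.35 (median 7.59) in WT, a difference of -2.19 ± 0.32 (adjusted p = 6.7e-05).

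**Figure D5:**
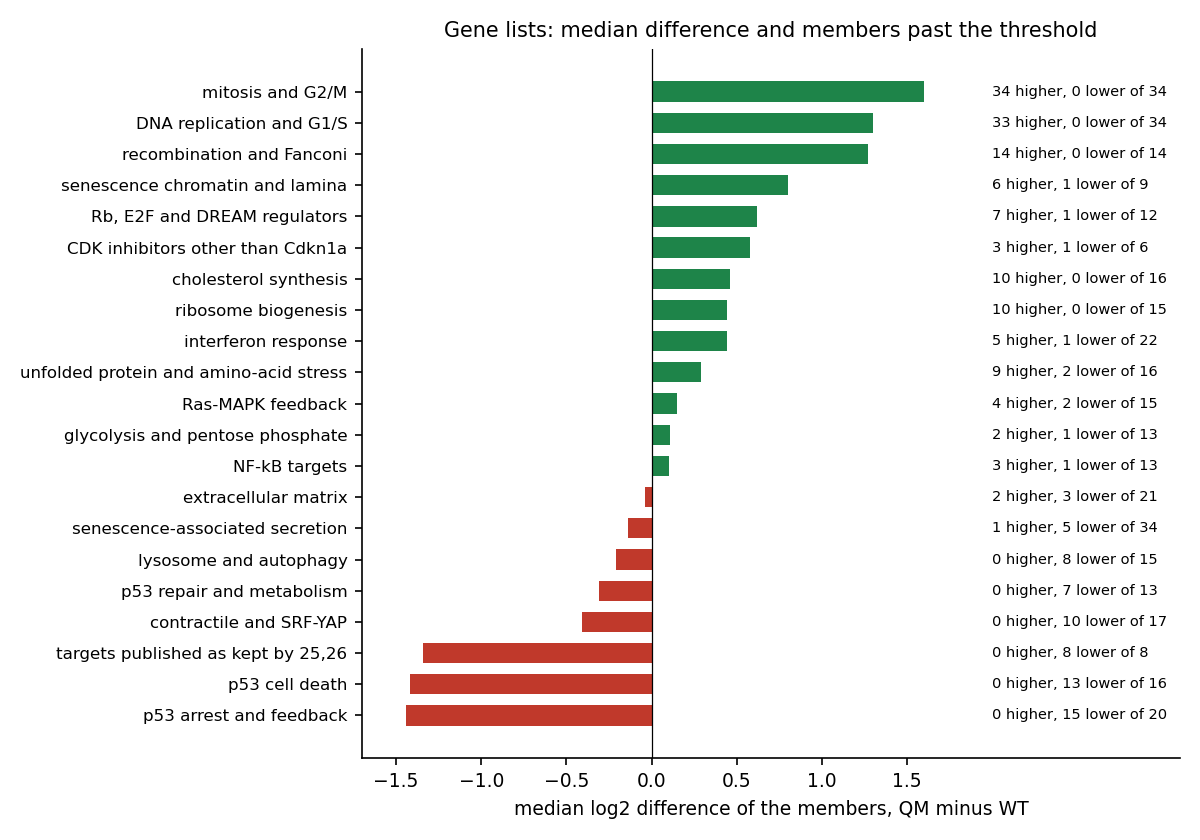
Bars give the median log2 difference, QM minus WT, over the tested members of each gene list, and the text beside them counts the members past an adjusted p of 0.05 in each direction. Mitosis, replication and recombination have the highest medians (1.60, 1.30 and 1.27), and p53 arrest and death targets the lowest (-1.44 and -1.42).

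Among metabolic groups, ribosome biogenesis was higher in QM, in 10 of 15 members with none lower and a median difference of 0.44. Dkc1, the pseudouridine synthase of ribosomal RNA, stood at 12.13, 11.90 and 11.92 in QM, against 10.81 to 11.24 (median 11.17) in WT, a difference of 0.86 ± 0.10 (adjusted p = 1.3e-05). Its partner Gar1 rose by 0.63. Of 16 genes of the unfolded-protein and amino-acid stress list 9 were higher and 2 lower, with a median of 0.29, and 5 and 2 without the block. Without QM array 2 they were 6 and 2. The lower count is near the share over all genes tested, 11.1% lower, while 15.2% were higher. The higher ones named here make serine and glycine, Shmt2 (0.97 ± 0.12, adjusted p = 1.6e-05) and Psat1 (0.60 ± 0.10, adjusted p = 0.00022). The lower ones were the chaperone Dnajb9 (-0.58 ± 0.10, adjusted p = 0.00051) and Ddit4, an inhibitor of mTOR and a known p53 target. Ddit4 stood at 9.47, 10.01 and 9.76 in QM, against 11.14 to 12.01 (median 11.52) in WT, a difference of -1.80 ± 0.19 (adjusted p = 3e-06).

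Cholesterol-synthesis genes were higher in 10 of 16 members with none lower and a median of 0.46. That count fell to 5 without the block, to 3 without QM array 2 and to 0 without the arrays numbered 2, where the median was 0.36. Sqle, the epoxidase of the pathway, stood at 11.85, 11.77 and 11.56 in QM, against 11.14 to 11.48 (median 11.18) in WT, a difference of 0.47 ± 0.10 (adjusted p = 0.0026). Glycolysis and pentose phosphate genes were called in 3 of 13, 2 higher and 1 lower, with a median of 0.11. These counts are near the shares over all genes tested, 15.2% higher and 11.1% lower. Without QM array 1, 2 or 3 the list had 1 higher. Tpi1 (triosephosphate isomerase) rose by 0.43. Lysosome and autophagy genes were lower in 8 of 15 members with none higher and a median of -0.21, and in 4 without the block. Without QM array 2 there were 5, and without the arrays numbered 2 there were 4. Ctsd, the protease cathepsin D, stood at 12.23, 12.18 and 11.82 in QM, against 12.83 to 13.39 (median 13.06) in WT, a difference of -1.02 ± 0.09 (adjusted p = 5.7e-07). The membrane protein Lamp2 fell by 0.45, and Atg7, which starts conjugation in autophagy, by 0.62, or by 0.28 and 0.39 for the mean of their probe sets.

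Genes of contractile fibres and of SRF and YAP signalling were lower in 10 of 17 members with none higher and a median of -0.41. The count was 4 without the block, 2 without QM array 1 and 3 without the arrays numbered 2. Ccn2, a matrix-associated growth factor, stood at 10.59, 9.79 and 11.05 in QM, against 11.50 to 13.19 (median 12.50) in WT, a difference of -1.95 ± 0.30 (adjusted p = 0.00015). Cald1 (caldesmon) fell by 0.39. Acta1, skeletal actin, in the muscle marker list, fell by 1.69, with 9.32, 9.23 and 9.05 in QM against 9.82 to 12.20 (median 10.78) in WT. The other 2 called muscle markers went the other way, with Tnnt1 higher by 0.77 and Chrna1 by 1.08. The Chrna1 call was lost without QM array 1 or 2. Over all genes tested, 15.2% were higher and 11.1% lower. Extracellular matrix genes were called near those shares, with 2 higher and 3 lower of 21 and a median of -0.04. Fbln1 (fibulin 1) rose by 1.39 and Fbln2 (fibulin 2) fell by 0.97, and 1 of 3 probe sets of Fbln1 showed -0.13. For the mean of their probe sets the differences were 0.82 and -0.58. Without QM array 1 the matrix counts were 1 and 1. In the Ras-MAPK feedback list 4 of 15 genes were higher and 2 lower, with a median of 0.15, against 1 and 1 without the block, and 2 higher without QM array 1 or 3. Etv5, a transcription factor downstream of Ras, was higher by 0.59 and the phosphatase Dusp5 lower by 0.67, and the Etv5 call was lost without the block.

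Markers of fibroblasts and of other cell types were compared between QM and WT, which cannot by itself show what the cells are. Of 10 fibroblast markers 5 were higher in QM and none lower, with a median of 0.43, and their summed intensity was 62000 to 66500 in QM and 46300 to 63800 in WT. Twist2, a mesenchymal transcription factor, rose by 0.50. The count was 2 without the block and 1 without QM array 2. No endothelial (6 tested), neural (9) or erythroid (1) marker was called, at 0 of each. Other marker lists had 1 called of 8 macrophage, 1 of 5 adipocyte, 1 of 7 cartilage and 3 of 9 muscle genes. Over all genes tested, 15.2% were higher and 11.1% lower. These values carry no detection call, so none can be said to be at 0.

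The 2 WT subgroups gave similar counts of higher genes, but fewer lower genes were called against LSL-WT+Cre. QM differed from LSL-WT+Cre in 3793 genes (24.8%), 2298 higher and 1495 lower, and from WT+Cre in 4541 (29.7%), 2389 higher and 2152 lower. With each array centred on its median, the share of higher calls against LSL-WT+Cre was 71.1%, beside 60.6% in the fit as described. All 34 mitosis genes were higher against each subgroup, but some lists depended on it. Cholesterol synthesis had 4 genes higher than LSL-WT+Cre and 12 higher than WT+Cre. Extracellular matrix had 1 higher and 1 lower against LSL-WT+Cre, and 6 higher and 4 lower against WT+Cre. The kinase inhibitors had 2 higher against LSL-WT+Cre, and 5 higher and 1 lower against WT+Cre. Both comparisons share the 3 QM arrays. Past the threshold in both were 1589 higher and 997 lower genes, among them all 15 largest rises and all 15 largest falls. The largest rises and falls were chosen without overlap with any WT array, so their passing in both follows in part from the choice. Cdkn1a differed by -2.83 from LSL-WT+Cre and by -2.70 from WT+Cre, Mdm2 by -3.03 and -2.46, Psrc1 by -5.30 and -5.20, and Bub1 by 1.97 and 1.94. Crct1 differed by -2.47 from LSL-WT+Cre and by -4.61 from WT+Cre, Cytip by 1.62 and 4.11, and Icam1 by -2.71 and -1.67.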

How the data were processed

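RNA of 23 mouse embryonic fibroblast samples, each on 1 Affymetrix oligonucleotide array, was used. The authors deposited 1 intensity per probe set on a linear scale, made with RMA per the submitters' processing notes; version and options are not given in the sources used here. Values were taken to log2. Of 45101 probe sets, 64 controls were left out, 34945 had 1 gene symbol in the platform annotation, 932 several and 9160 none. Each of 18193 genes was read from its probe set with the highest mean, and 15266 were tested, those that exceeded log2 4.79 (percentile 30 of the whole table) in 3 or more arrays.

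Groups followed the titles. All 23 arrays entered 1 linear model of 5 genotype classes with the title number as block, in limma (version 3.58.1, under R 4.3.3; moderated two-sided test, Benjamini-Hochberg over all genes tested, threshold 0.05). A model of 7 title groups gave the comparisons with LSL-WT+Cre and WT+Cre. The block was set by the plan of the comparison. Deviations from title-group means correlated at 0.351 to 0.627 (QM with LSL-WT+Cre) and 0.161 to 0.585 (QM with WT+Cre) for the same number. For other numbers the correlations ran from -0.468 to 0.137. Deviations cancel out within a small group, which lowers correlations of other numbers wherever those of the same number are high. These values are thus no independent check that the numbers pair arrays. The fit was tested on simulated data. The number of arrays limits the precision.

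Named genes were the 15 largest rises and 15 largest falls among called genes whose QM and WT arrays did not overlap, up to 4 members per list with the largest moderated statistic, and all members of the p53 and kinase inhibitor lists; other genes named were chosen after their values were seen. The comparison and lists were chosen with earlier results of these data known. Lists are described by counts and medians, with no test. Promoters are RefSeq (GRCm38.p6); probe positions were not used. Alternatives covered block, filter, probe sets, normalization, covariates, variance and samples. The targeted gene and the Ras transgene are not analysed here.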

Additional observations from a re-analysis of the deposited data

Results flagged for a closer look

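Of 181 named genes, 8 had a WT array far from the other 5 by Dixon's test, which chance alone flags in about 1 of 20 groups. In 5 of them the array was LSL-WT+Cre 2. Its log2 level was 12.05 for Psrc1, against 11.35 to 11.57 in the other WT arrays, 10.22 for Ptprv against 8.41 to 8.92, and 9.93 for Arap2 against 9.13 to 9.33. It was low for Dkc1, at 10.81 against 11.12 to 11.24, and for Retn (resistin, an adipocyte marker), at 5.77 against 6.00 to 6.11. LSL-WT+Cre array 1 was low for Btn1a1, at 8.96 against 10.08 to 10.72. WT+Cre array 3 was high for Actc1 (cardiac actin), at 5.74 against 5.32 to 5.45, and WT+Cre array 1 was low for Sp7, a bone transcription factor, at 5.95 against 6.24 to 6.39. Leaving out LSL-WT+Cre array 2 ended none of the calls for Psrc1, Ptprv, Arap2 and Dkc1.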

How the results depend on the processing

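No named gene changed its direction past the threshold under any alternative. Without the replicate block, 2125 genes passed for QM against WT (main 4025), 1554 against LSL-WT+Cre (3793) and 2196 against WT+Cre (4541), and 19 of 181 named genes lost their call. With all probe sets tested one by one the counts were 6882, 7279 and 8081, over more features. With the compared arrays alone in the fit they were 2569, 2462 and 2028, from fewer arrays. Without the arrays of title number 2, chosen after seeing the data, 2353 passed against WT, 2411 against LSL-WT+Cre and 3469 against WT+Cre. The compared arrays alone without the block, also added after seeing the data, gave 1284 against WT. Leaving out 1 array at a time gave 2611 (without QM array 2) to 4030 against WT, 2633 to 3340 against LSL-WT+Cre and 3470 to 4456 against WT+Cre. The other alternatives, among them quantile normalization, strain background, Xist level and variance settings, stayed within 1.5 times of these counts. Levels near log2 4.79 carry little signal over background, which limits genes low in either group.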
